A study of Homo sapiens with 4 samples.

Results

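The regions described here are the listed 5-methylcytosine peaks that lie in 10 major imprinting control regions of C4-2B cells, a human prostate cancer line derived from LNCaP. They were chosen by position alone, as every peak sharing at least 1 bp with 1 of 10 hg19 spans named after H19, KCNQ1OT1, SNRPN, GNAS, PEG3, MEST, PEG10, GRB10, PLAGL1 and MEG3. The PKCλ/ι knockout list held 25 such peaks of 296521, and the sgC control list held 23 of 261657. The spans add up to 142 kb.

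Methylated DNA was captured with an antibody against 5-methylcytosine and sequenced (MeDIP-seq), beside input libraries made without the antibody step. The knockout cells carried sgPKCl/i, which targets PKCλ/ι, an atypical member of the protein kinase C family, and the control cells carried the guide sgC, labelled wild type. Both were untreated C42B cells harvested 48 h after plating, and whether either line was 1 clone or a pool is not given in the sources used here. Each genotype had 1 immunoprecipitated and 1 input library, so no difference below has a replicate check and no p-value is given. The lists hold no expression, so neither the loss of the kinase nor the cell identity was checked here.

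Genomic imprinting is the expression of a gene from 1 parental allele. It rests on control regions whose cytosines are methylated on the chromosome of 1 parent alone, which need not be the parent whose allele is expressed. KCNQ1OT1, SNRPN, PEG3, MEST, PEG10, GRB10 and PLAGL1 mark regions methylated on the maternal allele, whereas those of H19 and MEG3 are methylated on the paternal allele. GNAS, which encodes the stimulatory G protein alpha subunit, holds regions of both kinds. Imprinted methylation is kept through early development by ZFP57, a zinc finger protein that binds a methylated CpG in the core TGCCGC, and it is often gained or lost in tumours. The antibody reads both alleles together, so a peak does not tell which allele is methylated, nor a change in every cell from a change in some.

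Because 5-methylcytosine sits at CpG dinucleotides, the promoter sequence sets how many sites there are to capture, and 5 promoters are shown with CpG in capitals to make that visible. They are the 250 bases before a transcription start in RefSeq's table for GRCh38.p14, given 5′ to 3′ on the gene's strand. The table held 29 such windows for 7 of the 10 genes (H19, SNRPN, GNAS, MEST, GRB10, PLAGL1 and MEG3). The peaks are in hg19 and no positions were carried between the builds, so a window is not placed against a peak.
H19: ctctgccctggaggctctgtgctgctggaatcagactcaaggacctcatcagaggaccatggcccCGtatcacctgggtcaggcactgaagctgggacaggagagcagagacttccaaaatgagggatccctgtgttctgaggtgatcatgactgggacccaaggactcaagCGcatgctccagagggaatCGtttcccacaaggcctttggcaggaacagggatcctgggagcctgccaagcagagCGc
SNRPN: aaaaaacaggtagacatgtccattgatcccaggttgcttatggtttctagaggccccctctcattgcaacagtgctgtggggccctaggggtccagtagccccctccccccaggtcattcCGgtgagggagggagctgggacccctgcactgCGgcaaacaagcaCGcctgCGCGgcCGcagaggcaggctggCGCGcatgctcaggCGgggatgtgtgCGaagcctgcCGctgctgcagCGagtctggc
PLAGL1: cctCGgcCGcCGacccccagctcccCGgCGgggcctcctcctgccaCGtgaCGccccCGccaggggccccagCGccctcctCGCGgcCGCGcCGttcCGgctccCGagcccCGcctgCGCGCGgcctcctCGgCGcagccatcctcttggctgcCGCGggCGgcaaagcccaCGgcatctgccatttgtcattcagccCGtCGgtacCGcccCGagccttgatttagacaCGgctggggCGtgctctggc
MEST: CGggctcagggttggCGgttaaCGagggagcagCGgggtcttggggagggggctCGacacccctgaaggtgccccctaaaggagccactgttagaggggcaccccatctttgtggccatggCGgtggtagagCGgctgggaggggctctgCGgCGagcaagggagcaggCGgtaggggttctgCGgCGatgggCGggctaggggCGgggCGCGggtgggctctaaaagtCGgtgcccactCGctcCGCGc
MEG3: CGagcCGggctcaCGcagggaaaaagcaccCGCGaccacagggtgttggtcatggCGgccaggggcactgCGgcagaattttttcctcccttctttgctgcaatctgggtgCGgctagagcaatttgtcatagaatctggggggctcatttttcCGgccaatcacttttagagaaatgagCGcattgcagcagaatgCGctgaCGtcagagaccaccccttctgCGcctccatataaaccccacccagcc

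The H19 window, chr11:2001267-2001516 on the minus strand, held only 4 CpG. The SNRPN window, chr15:24954737-24954986 on the plus strand, held 12 and is the promoter that SNRPN shares with SNURF. The PLAGL1 window, chr6:144008260-144008509 on the minus strand, held 32 and is shared with HYMAI, the imprinted transcript at that start. The MEST window, chr7:130491835-130492084 on the plus strand, held 20, and the MEG3 window, chr14:100825858-100826107 on the plus strand, held 13. Over all 35116 windows of the table the median was 11 CpG, with quartiles of 3 and 23. TGCCGC or its reverse complement was found in 9 of the 29 member windows, several of which overlap each other, and in 12.7% of all windows. The SNRPN and PLAGL1 windows shown each held it at 2 places. A match is a description of the letters, not a bound site.

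Read depth was not listed, so levels are given as the summit pileup (fragments overlapping at the highest point of a peak) divided by the floor of the same library. The floor is the lowest local background in a list, 4.42 fragments in the knockout and 2.92 in the control, and the ratio of 1.51 was used to scale the knockout to the control. Fold enrichment and −log10 q are the authors' own values for each peak. Intervals are at the 95% level. Those of pileups and of pileup ratios cover counting error only. Those of shares and medians treat peaks or regions as independent and cover no difference between libraries.

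Methylated peaks were denser inside the imprinting spans than beside them in most spans, in both genotypes. Peaks covered 17.7% of the span bases in the knockout and 12.9% in the control. Covered shares, here and below, were not scaled for depth, which by the floors was 1.51 times higher in the knockout. They therefore do not compare methylation between the genotypes. In flanks of the same length on both sides, peaks covered 8.26% in the knockout and 6.17% in the control. The span exceeded its flanks in 9 of 10 spans in the knockout and in 8 of 10 in the control. PEG10 was below its flanks in both genotypes, at 4.27% against 9.98% in the knockout and 5.48% against 14.5% in the control, and KCNQ1OT1 was below them in the control, at 3.94% against 5.89%. PEG3 and PLAGL1 had no listed peak in their flanks in either genotype.

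**Figure D1:**
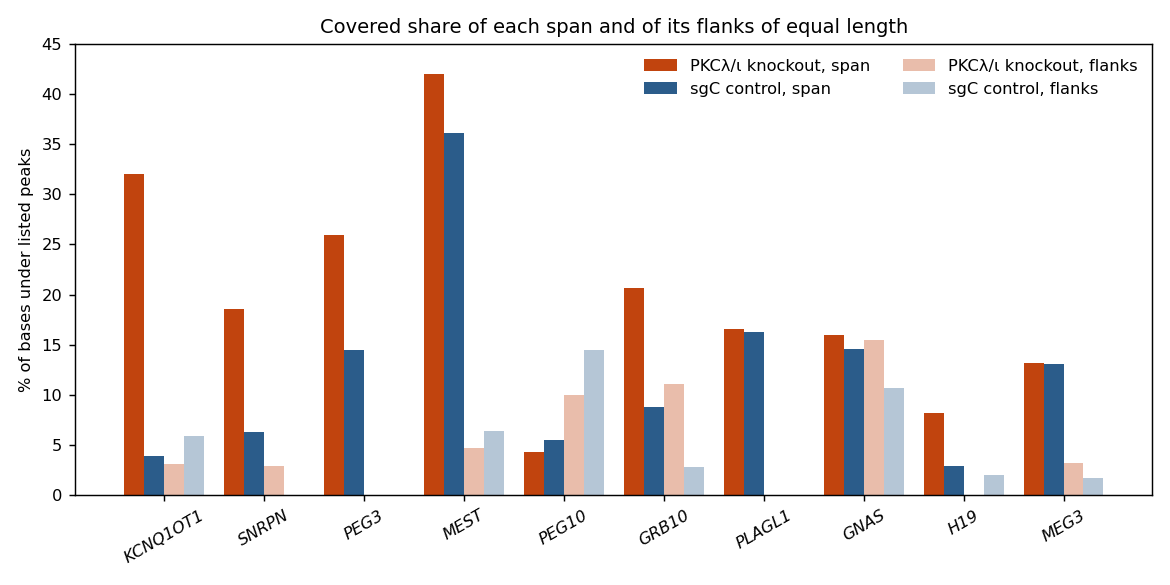
Percent of bases under listed peaks (vertical axis) in each of the 10 spans and, in paler bars, in flanks of the same total length on each side, for the knockout and the control library. MEST had the highest share in both genotypes (42.0% in the knockout and 36.1% in the control), and KCNQ1OT1 had the widest gap between them (32.0% and 3.94%). The shares were not scaled for depth.

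Long peaks made up a larger share in the spans than in the whole lists, while median lengths and levels were nearer to them. The median length was 512 bp in the knockout and 584 bp in the control, beside 464 bp over the whole knockout list and 458 bp over the whole control list. Peaks of at least 1000 bp made up 7 of 25 in the knockout (28.0%, exact interval 12.1 to 49.4), against 10.1% of the whole knockout list. In the control they made up 7 of 23 (30.4%, 13.2 to 52.9), against 8.78% of the whole control list. The 1000 bp limit was chosen after the values were seen, and GNAS held 3 of the 7 long knockout peaks and 4 of the 7 long control peaks. In the maternal spans the intervals for long peaks, from 3 of 14 in the knockout and 2 of 10 in the control, hold the whole-list shares. The median level was 9.72 times the floor in the knockout and 9.24 in the control, beside 8.14 over the whole knockout list and 8.55 over the whole control list. The median fold was 4.61 in the knockout and 5.85 in the control, beside 5.35 over the whole knockout list and 5.48 over the whole control list. Local background was high in the spans, exceeding 2 times the floor at 10 of 25 knockout peaks (40%, against 12.8% of the whole list) and at 5 of 23 control peaks (21.7%, against 8.62%).

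**Figure D2:**
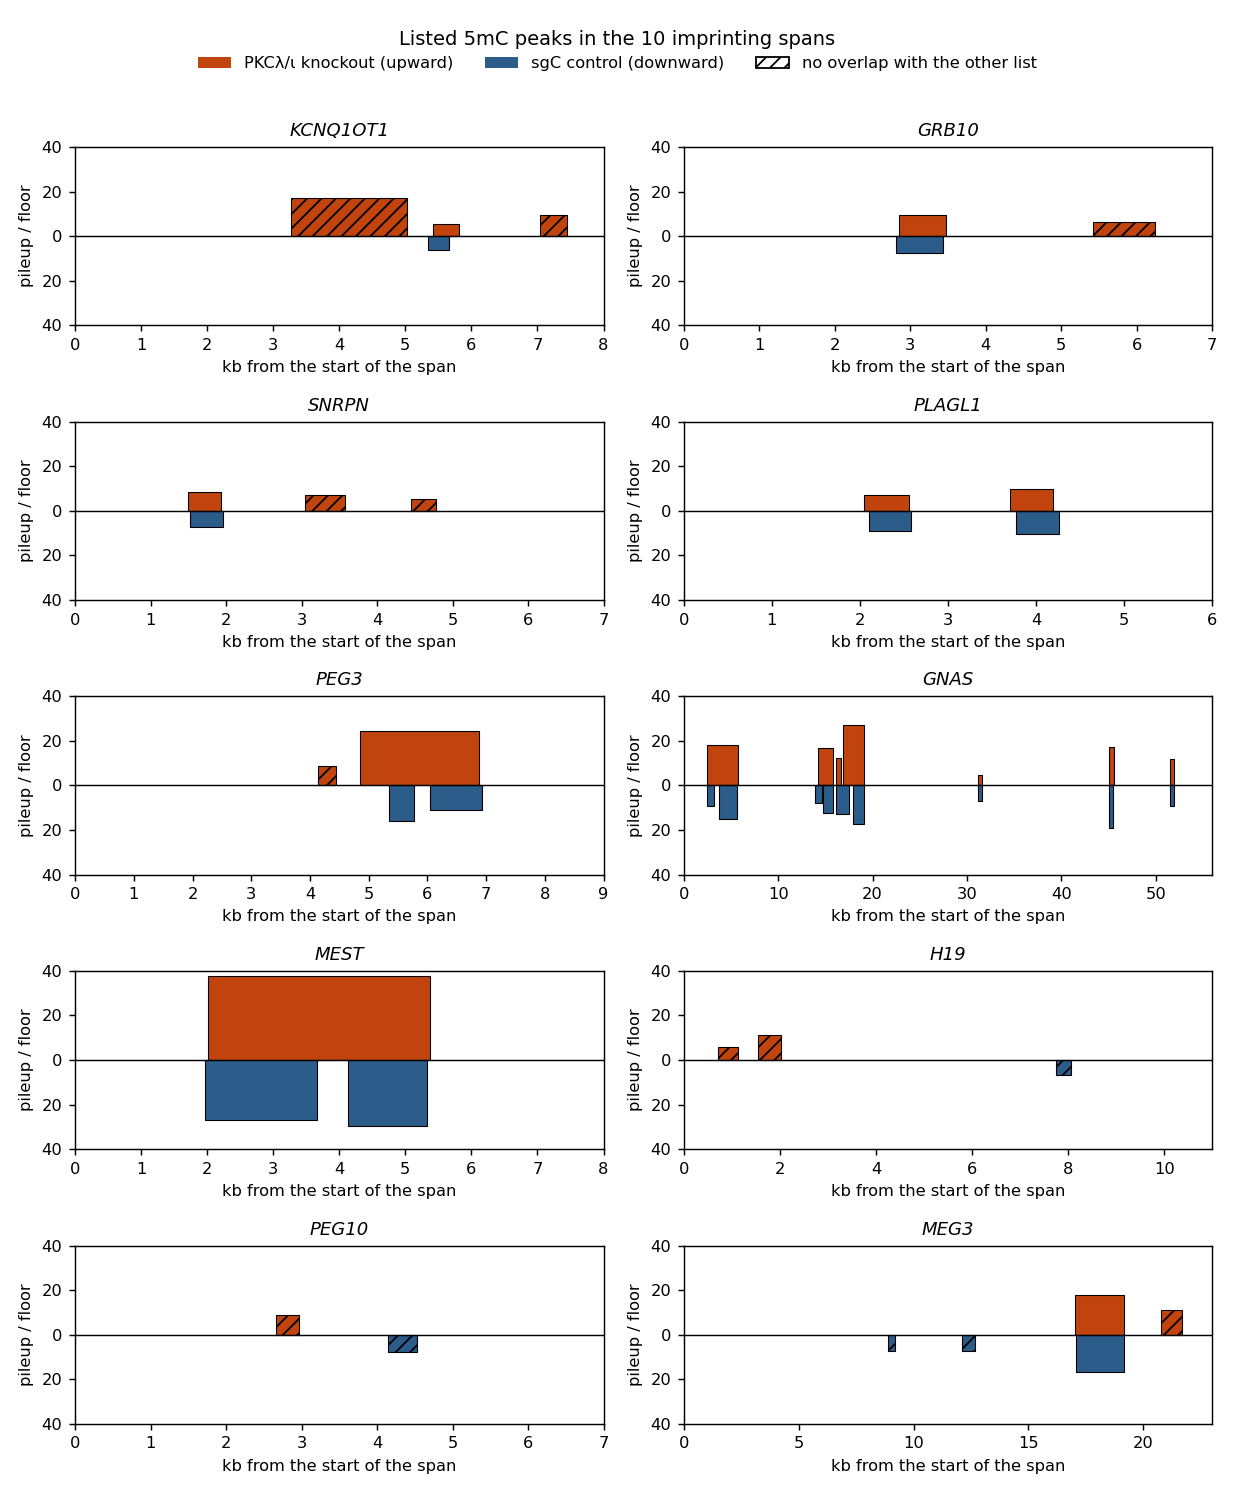
Every listed peak in the 10 spans, with distance from the start of the span in kb on the horizontal axis and summit pileup divided by the floor on the vertical axis, knockout upward and control downward. Hatched peaks overlap no peak of the other list, and H19 and PEG10 hold hatched peaks alone.

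Joining overlapping peaks of both lists gave 28 separate regions in the spans. Of these, 14 were listed in both genotypes, 10 in the knockout alone and 4 in the control alone. Of the knockout peaks 40% (21.1 to 61.3) lacked a control counterpart, against 23.9% over the whole knockout list. Of the control peaks 17.4% (4.95 to 38.8) lacked a knockout counterpart, against 12.1% over the whole control list. Both intervals hold the share of the whole list, so neither count stands apart from it at this number of peaks. Among strong peaks, with −log10 q of at least 10, 7 of 20 in the knockout were unmatched (35%, 15.4 to 59.2), against 14.9% of all strong knockout peaks, just below the interval. That threshold was applied to unmatched peaks after the values were seen. With no control peak allowed within 1000 bp, 4 of the 20 remained (20%, 5.73 to 43.7), against 9.67% of all strong knockout peaks, and that interval holds the share of the whole list. In the control 0 of 15 were unmatched, against 3.24% of all strong control peaks. The exact 2-sided upper limit was 21.8%, and 3 divided by the 15 peaks, an approximate 1-sided limit for a count of 0, was 20.0%. The limit of 10 was not scaled for depth, and 74.5% of all knockout peaks passed it against 57.0% of all control peaks. The 7 and the 0 were therefore not counted on equal terms. An unmatched control peak of MEG3, at chr14:101285112-101285695, only just missed it, with a −log10 q of 9.98. The 7 unmatched strong knockout peaks lay in 6 spans, since KCNQ1OT1 held 2 of them and H19, PEG3, PEG10, GRB10 and MEG3 held 1 each. When the 10 unmatched knockout peaks were scaled to control depth with their backgrounds, all 10 still passed the lowest significance in the control list. These peaks were picked because the knockout list held them, and the control backgrounds at their places are not listed. Whether depth kept them off the control list was therefore not tested.

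By parental origin, the 7 maternally methylated spans held 14 knockout peaks, 7 of them unmatched, and 10 control peaks, 1 of them unmatched. The exact intervals of these shares, 23.0 to 77.0% in the knockout and 0.253 to 44.5% in the control, hold the whole-list shares of 23.9% in the knockout and 12.1% in the control. Peaks covered 23.7% of these spans in the knockout and 13.3% in the control, beside flanks at 4.44% in the knockout and 4.21% in the control. The 2 paternally methylated spans held 4 peaks in each genotype, 3 of them unmatched in each (75%, exact interval 19.4 to 99.4). That interval holds the whole-list share of the knockout but lies above the 12.1% of the control. It rests on only 4 peaks, which it treats as independent. Peaks covered 11.6% of the paternally methylated spans in the knockout and 9.77% in the control.

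KCNQ1OT1, the antisense transcript whose promoter lies in the control region of the KCNQ1 and CDKN1C domain, held the unmatched peak with the highest pileup. Its span is chr11:2717000-2725000. The knockout list held a peak of 1760 bp at chr11:2720272-2722031, with a pileup of 76 (59.9 to 95.1), 17.2 times the floor, a fold of 4.29 and a −log10 q of 23.6. No control peak overlapped it, and the nearest began 317 bp beyond its end, so it does not count as unmatched where a control peak within 1000 bp is taken as a match. Only 5.44% of all knockout peaks had a higher pileup and 97.7% were shorter. At control depth this pileup corresponds to 50.2 fragments over a background of 11.2, where 24 fragments would pass the control list's threshold at the summit. The knockout background here was 3.83 times the floor, the highest of the 25 knockout peaks, and the control background at the same place is not listed.

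The rest of the KCNQ1OT1 span held weaker peaks. The control's peak of the span, at chr11:2722348-2722662 with a pileup of 18, overlapped a knockout peak with a pileup of 25. Their levels were 5.65 times the floor in the knockout and 6.16 in the control, a log2 ratio of -0.12 (-1.06 to 0.84), so the 2 were not separable. A further knockout peak at chr11:2724037-2724445 had a pileup of 42 and a −log10 q of 11.8, with no control peak within 1375 bp.

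MEST, which encodes an alpha/beta hydrolase expressed from the paternal allele, held the highest level of the 10 spans in both genotypes. The CpG content of the peaks was not counted, so levels do not rank the spans by methylation. Within chr7:130128000-130136000 the knockout had 1 peak of 3360 bp at chr7:130130009-130133368, with a pileup of 167, 37.8 times the floor, a fold of 10.5 and a −log10 q of 105.8. The control had 2 peaks under the same stretch, at chr7:130129965-130131664 and chr7:130132138-130133327, with pileups of 79 and 87, or 27.0 and 29.8 times the floor. Only 0.0664% of all knockout peaks and 0.204% of all control peaks had a higher pileup than the strongest peak here.

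The size of the MEST difference depended on what was compared. Highest against highest pileup gave a log2 ratio of 0.34 (-0.04 to 0.73), but those summits lay 1740 bp apart. The knockout summit lay 11 bp from that of the weaker control peak, and this comparison gave 0.48 (0.09 to 0.89). The ratio of fold enrichments of the highest peaks was -0.36, since the background was 3.41 times the floor in the knockout and 1.90 in the control. Against the control peak with the nearby summit the folds were 10.5 in the knockout and 8.73 in the control, so the direction depended on which control peak was taken.

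PEG3, a paternally expressed zinc finger gene, had the second highest level among the maternal spans in both genotypes. In chr19:57346000-57355000 the knockout peak at chr19:57350856-57352875 was 2020 bp long, with a pileup of 107 and a level of 24.2. It overlapped 2 control peaks with pileups of 47 and 32, levels of 16.1 and 10.9. The log2 ratio of the highest pileups was 0.59 (0.08 to 1.12), a ratio of 1.504, and the background was alike at 2.36 times the floor in both. The ratio of fold enrichments was 0.64. A short knockout peak of 316 bp with a pileup of 39 lay at lower coordinates, at chr19:57350134-57350449, with no control peak within 897 bp.

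SNRPN, GRB10 and PLAGL1 had highest levels between 7.18 and 10.3 times the floor over both genotypes. SNRPN encodes a small nuclear ribonucleoprotein and lies in the Prader-Willi and Angelman domain, and its span is chr15:25197000-25204000. It held 1 region in both lists, with pileups of 38 in the knockout and 21 in the control, levels of 8.59 and 7.18 and a log2 ratio of 0.26 (-0.55 to 1.10). Another pair of SNRPN peaks was listed in the knockout alone, at chr15:25200048-25200575 with a pileup of 31 and at chr15:25201446-25201778 with a pileup of 23. Their −log10 q values of 5.08 and 8.43 were below the strong threshold.

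GRB10 encodes an adaptor that dampens insulin receptor signalling. Its span, chr7:50846000-50853000, held a shared region with pileups of 42 in the knockout and 22 in the control, levels of 9.49 and 7.53 and a log2 ratio of 0.34 (-0.44 to 1.15). A knockout peak at chr7:50851423-50852243 had a pileup of 28 and a −log10 q of 10.5, just past the strong threshold, and no control peak lay within 941 bp. PLAGL1 is a zinc finger gene linked to transient neonatal diabetes. Its span, chr6:144326000-144332000, held 2 regions in both lists and none in 1 alone. Their pileups were 32 and 43 in the knockout and 26 and 30 in the control, with log2 ratios of -0.30 (-1.09 to 0.51) and -0.08 (-0.78 to 0.64). The log2 ratios of fold enrichments were lower, at -0.40 and -0.63. In the second region the fold was 5.11 in the knockout and 7.90 in the control, over a background of 1.72 times the floor in the knockout and 1.00 in the control.

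PEG10, a gene derived from a retrotransposon, had the least covered span in the knockout. Within chr7:94283000-94290000 the knockout had 1 peak of 299 bp at chr7:94285667-94285965, with a pileup of 39 and a level of 8.82. The control had 1 peak of 384 bp at chr7:94287148-94287531, with a pileup of 23 and a level of 7.87. The peaks lay 1183 bp apart, so neither genotype had a listed counterpart of the other's peak.

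**Figure D3:**
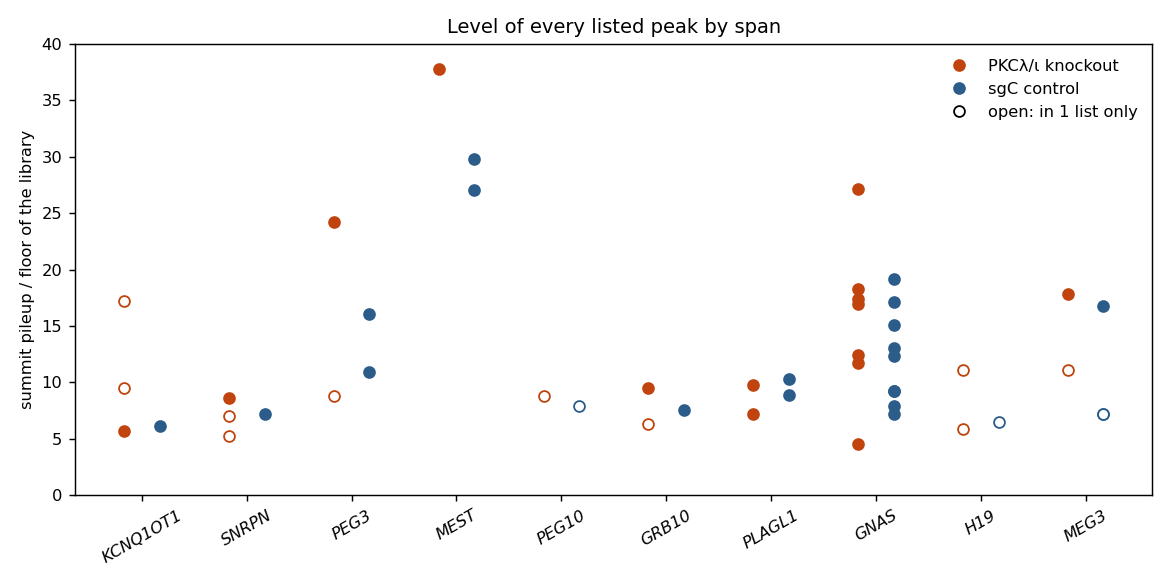
Level of each listed peak (summit pileup divided by the floor of its library) by span, knockout left of control, open circles for peaks in 1 list only. The MEST peaks stand highest, at 37.8 in the knockout and 27.0 and 29.8 in the control; the open knockout circle at 17.2 is the KCNQ1OT1 peak, and 2 control peaks of MEG3 coincide at 7.18.

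GNAS had the longest span, chr20:57412000-57468000, and its 6 methylated regions were all found in both genotypes. It held 7 knockout peaks and 9 control peaks, and 0 of either were unmatched. The exact intervals, 0 to 41.0% in the knockout and 0 to 33.6% in the control, hold the whole-list shares. Those were 23.9% in the knockout and 12.1% in the control, so the counts of 0 do not set GNAS apart. From the start of the span, the regions began at 2.45, 13.9, 16.1, 31.2, 45.02 and 51.5 kb. In that order the highest pileups were 81, 75, 120, 20, 77 and 52 in the knockout, against 44, 36, 50, 21, 56 and 27 in the control. The first 3 were broad, at 3306, 1952 and 3023 bp, and the last 3 were between 417 and 545 bp.

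Within GNAS the third region had the highest ratio and the fourth the lowest. At chr20:57428090-57431112 the level was 27.1 in the knockout and 17.1 in the control, a log2 ratio of 0.67 (0.18 to 1.17) and a ratio of 1.59. The background there was 2.98 times the floor in the knockout and 2.47 in the control, and the ratio of fold enrichments was 0.46, below 1.5-fold. A second summit in the same region gave -0.06 (-0.69 to 0.57), an interval that overlaps the first, and the difference between the 2 summits was not tested. At chr20:57443196-57443612 the level was 4.52 in the knockout and 7.18 in the control, a log2 ratio of -0.67 (-1.63 to 0.29), which counting error alone spans. The other 4 had log2 ratios between -0.14 and 0.46, each with an interval that held 0. The strongest GNAS peak was the third region in the knockout but the fifth, at chr20:57457053-57457522 with a level of 19.2, in the control.

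The paternally methylated regions differed from each other. H19 encodes a long noncoding RNA beside IGF2, and its span is chr11:2016000-2027000. The knockout list held 2 peaks there, at chr11:2016718-2017135 with a pileup of 26 and at chr11:2017553-2018033 with a pileup of 49, or 5.88 and 11.1 times the floor. The control list held 1 weak peak, at chr11:2023746-2024065 with a pileup of 19, 6.50 times the floor, and a −log10 q of 3.98. It lay 5713 bp from the nearest knockout peak, so the 2 genotypes shared no listed H19 region. The knockout peaks lay in the first 2.03 kb of the span, and the control peak began at 7.75 kb. No annotation of this build was used, so none of these peaks was placed against the H19 gene or its upstream region. The control peak was among the weaker ones, and 75.6% of all control peaks had a higher pileup. At knockout depth it corresponds to 28.8 fragments, where 20 would pass at its scaled background, and the knockout background there is not listed.

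MEG3, a long noncoding RNA of the DLK1 domain, had its main methylated region at a similar level in both genotypes. In chr14:101273000-101296000 the peak of 2129 bp at chr14:101290042-101292170 had a pileup of 79 in the knockout, a level of 17.9 and a fold of 9.004. The matching control peak, of 2104 bp, had a pileup of 49, a level of 16.8 and a fold of 9.17. The log2 ratio was 0.09 (-0.44 to 0.64). The knockout also had a peak at chr14:101293778-101294683 with a pileup of 49, and the control had 2 short peaks at chr14:101281883-101282197 and chr14:101285112-101285695, each with a pileup of 21. None of these 3 had a counterpart in the other list, and the background of the knockout one was 2.77 times the floor.

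Across the 14 regions listed in both genotypes the knockout was higher in 9 and lower in 5. The median log2 ratio was 0.27 (-0.14 to 0.46), beside 0.04 over all 220001 such regions of the genome. That interval reflects the spread between regions and treats them as independent, although 6 of the 14 lie in GNAS. The background of the same 14 regions had a median log2 ratio of 0.23, and the fold enrichment, which divides by it, had a median of 0.07. Regions more than 1.5-fold higher in the knockout numbered 2 (PEG3 and the third of GNAS), against 5.27% of all regions. PEG3 was barely past this limit, at 1.504. Centred on the median of all one-to-one pairs, its log2 ratio was 0.55, below 1.5-fold. In the knockout 1 region was more than 1.5-fold lower (the fourth of GNAS), against 3.47%. The interval lay above 0 in 2 of the 14 and below 0 in 0, and the share of such intervals over all regions was not computed. In the 7 maternal regions the median was 0.26, in the 6 of GNAS 0.32, and the paternal regions gave a single value of 0.09. Among the 9 regions made of exactly 1 peak in each list the median was -0.08 (-0.30 to 0.34). The knockout was higher in 4 of these 9, against 112745 of 206556 one-to-one pairs over the whole lists. The 5 regions in which peaks were joined ranged from 0.28 to 0.67. A joined region takes the highest of several summits. The compared summits lay 11 to 93 bp apart in PEG3 and the joined GNAS regions, but 1740 bp apart in MEST.

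**Figure D4:**
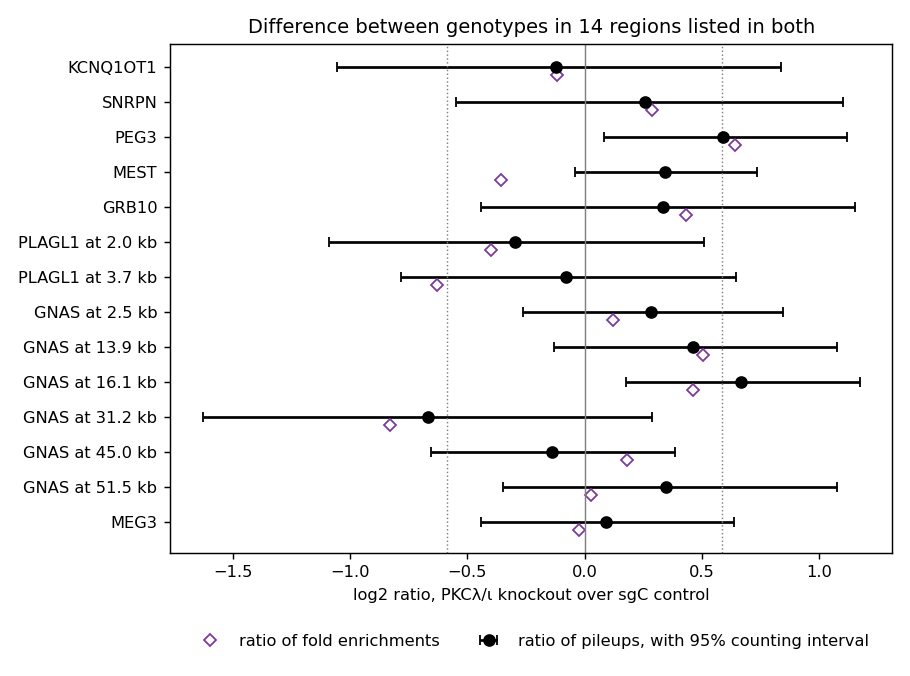
Log2 ratio of the highest pileup, knockout over control and scaled by the floors, in the 14 regions listed in both genotypes, with exact 95% intervals for counting error; open diamonds give the log2 ratio of fold enrichments and dotted lines mark 1.5-fold. PEG3 and GNAS at 16.1 kb have intervals above 0, and MEST has its 2 symbols on opposite sides of 0.

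The neighbourhoods of the spans are described by one-to-one pairs of peaks, whose median inside the spans was -0.08. Among pairs of peaks within 1 Mb of a span, outside the span itself, the median log2 ratio ran from -0.03 around H19 (304 pairs) to 0.13 around PEG10 (49 pairs). Around PEG3 it was 0.07, around MEST 0.08, around GNAS 0.03 and around KCNQ1OT1 0.00. The median log2 ratio of background around the spans ran from 0.00 to 0.19, highest around H19, beside 0.23 in the 14 regions. A change in copy number and a change in methylation of the region cannot be told apart in these lists.

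**Figure D5:**
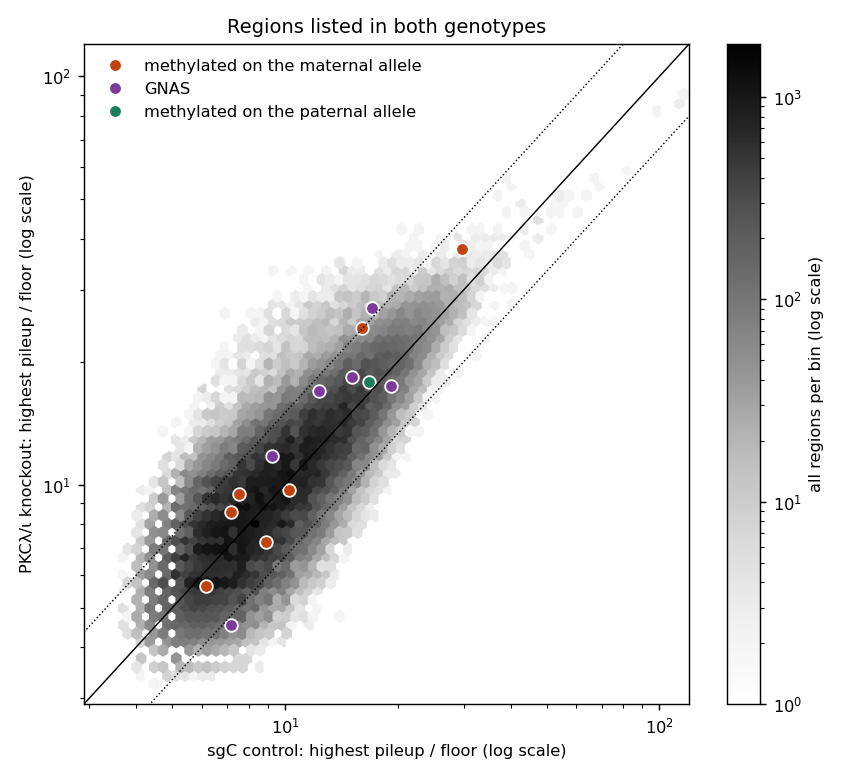
Highest pileup divided by the floor in the knockout (vertical) against the control (horizontal), both on log scales, for all 220001 regions listed in both genotypes (grey bins) and the 14 in the spans (points). The solid line is equality and the dotted lines 1.5-fold; 2 points lie above the upper dotted line and 1 below the lower one.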

How the data were processed

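MeDIP-seq was done on 4 libraries, and the 2 deposited peak lists, 1 for each immunoprecipitate, were analysed. Reads were aligned with BWA to hg19, checked with FastQC and peaks were made with MACS2, per the submitters' processing notes. Tool versions, settings and the treatment of duplicates are not given in the sources. The deposited pileup signal is a whole number not scaled between libraries. The deposited fold enrichment is the ratio of pileup to local background, each plus 1, per the file headers and the values. For significance the authors deposited −log10 p and −log10 q.

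Spans were read from their stated hg19 positions. Local background was recomputed as pileup plus 1, over fold, minus 1, and gave the listed −log10 p to within 0.000573 by a Poisson tail. The floor, the lowest background, stood in for depth, because no read totals were listed; it removes any change common to the whole genome. Peaks sharing 1 bp were matched, and overlapping peaks of both lists were joined into regions. Pileup ratios have exact conditional binomial intervals, shares Clopper-Pearson, counts Poisson and medians order-statistic ones. The named regions are all 10 spans, the highest peak of each, unmatched strong peaks and extreme ratios; other peaks, the joined regions, the summit-matched ratios and the 1000 bp limit for long peaks were chosen after values were seen. The members and lists were chosen with earlier results of these data known. The scripts were checked on made-up lists with known answers. Python 3.11.15, pandas 2.3.3 and SciPy 1.17.1 were used. Promoters of neighbouring imprinted genes were not analysed here, since no annotation of the files' build was used.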

Additional observations from a re-analysis of the deposited data

How the results depend on the processing

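Of 42 alternatives over 14 results, 34 stayed within 1.5 times (counts and lengths) or within the 95% interval (log2 values) and 8 left these bounds. Log2 values under 1.5-fold changed sign for MEST, given below, for MEG3 and for the median of the one-to-one pairs. The MEG3 value was 0.09 for pileups and -0.03 for fold enrichments. The median of the pairs was -0.08 as reported, 0.27 over joined regions and 0.01 without GNAS. Restricting to −log10 q of at least 10 left 15 control peaks in the spans and 0 unmatched control peaks (also 0 with the 1000 bp distance added, which left 4 knockout peaks), and leaving out GNAS left 14 control peaks, in each case because fewer peaks were counted. With 50% reciprocal overlap, 11 control peaks were unmatched in place of 4, and 13 knockout peaks in place of 10, and the cause was not tested. Of the 9 one-to-one pairs, 1 was past 1.5-fold and 0 were past 2-fold. For MEST the ratio of fold enrichments was -0.36 against 0.34 for pileups. The unmatched knockout peaks numbered 7 when no control peak was allowed within 1000 bp, which dropped the long KCNQ1OT1 peak and those of PEG3 and GRB10. Joined regions and the −log10 q limit on unmatched peaks, alone or with the distance, were added after the data were seen. No paired analysis was possible because neither genotype had a second library. Depth limits most ratios here: intervals of pairs with pileups near 20 span more than 1.5-fold on either side.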

Other observations

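Peaks beside the spans were uneven. GRB10 had 22.2% of its right flank under peaks in the knockout and 5.61% in the control, and 0 bases of its left flank in either. PEG10 also had peaks on the right alone, over 20.0% of that flank in the knockout and 29.0% in the control. GNAS flanks were the richest in peaks, with 30 in the knockout and 21 in the control. H19 had 0 flank peaks in the knockout and 1 in the control.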
